A study of Mus musculus with 20 samples.

Results

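Keratins are the intermediate filament proteins of epithelia, built from a type I and a type II chain that pair with each other. In skin, basal keratinocytes make one pair, the layers above them switch to another, and the hair follicle adds its own sets: inner root sheath keratins, which mould the growing hair, and hair keratins, which are embedded in keratin-associated proteins to harden the shaft. The follicle makes the sheath and shaft proteins while it grows (anagen) and stops when it regresses and rests, so in skin their RNA follows the hair cycle.

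The members described here are the mouse genes named Krt with a number, or Krtap, leaving out the simple epithelial keratins Krt8, Krt18 and Krt19. There were 83 of them among 18193 genes with a probe set of 1 gene symbol. They were taken from the gene names alone, with no measured value. The set and its classes were chosen with earlier results of these data known. Each member was read through 1 probe set, that of the highest mean signal. By their known site they were sorted into 3 basal epidermal keratins, 7 suprabasal keratins, 5 stress and outer root sheath keratins, 7 inner root sheath keratins, 12 hair shaft keratins, 38 keratin-associated proteins and 11 others. A mean signal of at least 300 over the arrays was required for a test, and 71 members passed. Of these, 64 had a mean of at least 300 in every group, and the other 7 (Krt7, Krt13, Krt16, Krt88, Krt222, Krtap5-2 and Krtap6-2) passed with at least 1 group below it. The hair shaft keratin Krt85 was not analysed here.

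The RNA came from mouse flank tissue of the Ad-VEGF-A164 model, in which an adenovirus carries VEGF-A164, a splice form of the endothelial growth factor VEGF-A. Tissue was taken at day 0 without the vector (control, 5 arrays, A to E), and at day 5 (4 arrays, B to E), day 20 (5 arrays, A to E) and day 60 (5 arrays, A to E) of the vector. One more array is titled day 5 A, yet its source name puts it in the day 0 control, and it entered no comparison. The labels name no strain, age, sex, promoter, infected cell type, empty vector or control animals of the later days. VEGF-A164, the vector, its injection, the time of harvest and the stage of the hair cycle therefore cannot be told apart in these groups. No label says that arrays are separate animals, so p-values reflect only how far these samples spread, possibly for technical reasons.

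The values are MAS5 signals on a linear scale, the brightness of a probe set on 1 array after the authors' scaling. Tests used limma on log2(signal + 100) over 13594 genes, and a gene was called at a Benjamini-Hochberg adjusted p under 0.05. Fold changes and log2 changes are on that scale, which understates changes of dim probe sets. The number of arrays limits the precision, and signals of different probe sets are not compared with each other. In bulk tissue, fewer cells of a type and less RNA per cell cannot be told apart. Values are listed in the order of the array letters.

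The tissue label names flank tissue, and defining skin genes were measured on every array, with Krt25 of the inner root sheath at 8164 or more and Krt14 of the basal layer at 266 or more. Median signals of the arrays lay between 405.9 and 569.3. The 5 endothelial genes of a marker list all rose on day 5 and on day 20 against control. Of 4 adipocyte genes tested, 3 fell on day 5 and 3 on day 20, and of 6 mammary luminal genes all fell at both times, so differences were not limited to skin genes.

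Several arrays stood apart for the keratins. Day 20 arrays B and E were the lowest 2 of all 19 arrays in 42 of the 71 tested members, including all 7 inner root sheath and all 3 basal members, against 4.02% of all genes tested. Control array B was the highest of the 19 in 40 of 71 members, against 5.99% of all genes. Among the day 5 arrays C was the highest in 50 members (19.2% of all genes), and among the day 20 arrays C was the highest in 47 (20.8% of all genes). RNA integrity was read from Actb, whose probe sets at the 3' and 5' ends gave ratios of 3.89 on day 20 B and 7.56 on day 20 E, against 2.6, 4.06 and 4.3 on the other day 20 arrays, so that E was the highest of its group. Control B, at 4.15, was the lowest of the controls, which otherwise ran between 6.78 and 9.12. Its Gapdh ratio, read in the same way, was instead the highest of the controls (2.57, against 1.85 to 2.39). The highest ratio of all, 13.97, was on day 60 A, which also had the highest ratio for Gapdh (7.72, against 3.62 on the next array) and was low for Krt1 and Krt10. By group the Actb ratio ran between 4.15 and 9.12 in control, 2.95 and 7.31 on day 5, 2.6 and 7.56 on day 20, and 4.32 and 13.97 on day 60. On day 60, B (10.4) and D (10.89) were also above every control, while C (4.32) and E (4.52) were not. The ratio thus differed between the groups compared, with overlap. The part of RNA quality in the results was not tested. Calls and class medians of day 20 against control and of day 60 against day 20 are given below with and without arrays B and E, and other day 20 values are from all arrays unless stated. That choice was made after the members' values were seen.

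**Figure D1:**
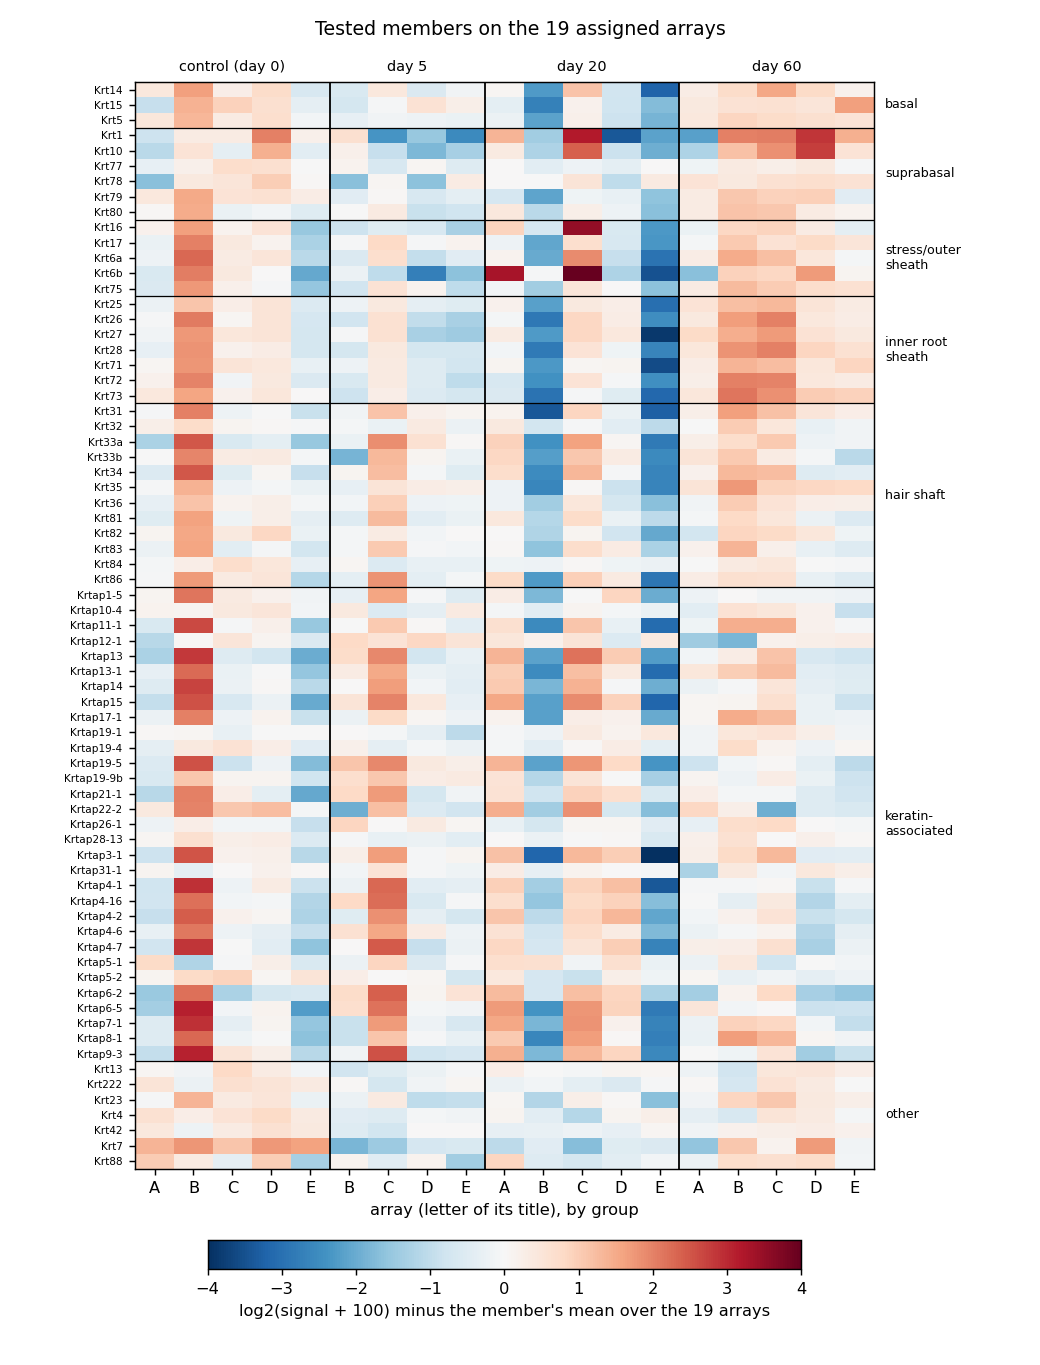
Each row is 1 of the 71 tested members, by class, and each column 1 of the 19 arrays, grouped as control, day 5, day 20 and day 60. Colour is log2(signal + 100) minus that member's mean over the arrays, and the dark blue columns of day 20 B and E and the red column of control B run through most follicle members.

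The members varied far more between arrays of 1 group than other genes did. The median residual SD of the members was 0.94 on the log2 scale, against 0.295 for all genes tested, and 57 of 71 members lay in the top 10% of genes by this SD. Krt6b, an injury-induced keratin, had the highest residual SD of all 13594 genes, at 2.15. By class the median SD was 1.20 for the keratin-associated proteins, 1.03 for the inner root sheath, 0.84 for the basal, 0.82 for the hair shaft and 0.41 for the other members. On day 20 alone it was 1.59 for the inner root sheath and 1.88 for the stress and outer sheath members, and 0.24 for all genes.

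The promoters of a few members are shown because one string of letters was frequent in the follicle classes, which the choice of members did not use. Windows of 250 bases before to 50 after the start were found in RefSeq (GRCm38.p6) for 66 of the 83 members. TATAAA, the core letters of the TATA box, was searched on both strands. It occurred in all 7 inner root sheath windows, 5 of 7 hair shaft windows and 29 of 36 keratin-associated windows, and in 4 of 8 windows of the other members, 0 of 2 basal, 1 of 5 suprabasal and 0 of 1 stress and outer sheath windows. Over all 27025 genes with a window the share was 15.7%. Between 20 and 40 bases before the start, on the gene's strand, it was found in 5 of 7 inner root sheath, 3 of 7 hair shaft, 21 of 36 keratin-associated and 3 of 8 other windows, against 2.41% of all genes. CTTTGAA, letters bound by Lef1, a Wnt pathway factor of the hair matrix, occurred in 4 of 7 hair shaft windows, 1 of 7 inner root sheath and 6 of 36 keratin-associated windows, against 5.93% of all genes. Searched in the same way, CTTTGTT, which differs from CTTTGAA only in its last letters, was in 9 of the 66 windows, against 6.68% of all genes. By class it was in 0 of 7 hair shaft, 1 of 7 inner root sheath, 7 of 36 keratin-associated and 1 of 8 other windows. The letters TGANTCA were in 8 windows, against 8.97%, and CACGTG was in 6, against 8.09%. Other strings were looked at while these were chosen. A match is a match of letters, and many keratin genes are duplicates of each other. In the lines that follow, capitals mark TATAAA or CTTTGAA on either strand, and overlapping matches are joined.
Krt5: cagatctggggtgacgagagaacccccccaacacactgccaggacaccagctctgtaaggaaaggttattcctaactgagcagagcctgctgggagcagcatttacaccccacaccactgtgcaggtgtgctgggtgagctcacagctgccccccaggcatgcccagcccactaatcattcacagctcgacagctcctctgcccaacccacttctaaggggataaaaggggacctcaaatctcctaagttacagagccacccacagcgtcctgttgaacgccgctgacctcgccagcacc
Krt25: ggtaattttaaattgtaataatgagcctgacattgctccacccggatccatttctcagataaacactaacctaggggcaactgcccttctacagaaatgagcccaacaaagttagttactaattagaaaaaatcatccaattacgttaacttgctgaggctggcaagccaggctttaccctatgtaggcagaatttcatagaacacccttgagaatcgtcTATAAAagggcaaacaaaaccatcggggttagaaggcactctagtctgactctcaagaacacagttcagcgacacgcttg
Krt73: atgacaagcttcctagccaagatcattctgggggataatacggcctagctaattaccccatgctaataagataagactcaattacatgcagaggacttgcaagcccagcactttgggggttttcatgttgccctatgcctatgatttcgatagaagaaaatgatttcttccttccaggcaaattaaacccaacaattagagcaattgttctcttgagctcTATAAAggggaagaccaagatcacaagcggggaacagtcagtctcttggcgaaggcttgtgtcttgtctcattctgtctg
Krt31: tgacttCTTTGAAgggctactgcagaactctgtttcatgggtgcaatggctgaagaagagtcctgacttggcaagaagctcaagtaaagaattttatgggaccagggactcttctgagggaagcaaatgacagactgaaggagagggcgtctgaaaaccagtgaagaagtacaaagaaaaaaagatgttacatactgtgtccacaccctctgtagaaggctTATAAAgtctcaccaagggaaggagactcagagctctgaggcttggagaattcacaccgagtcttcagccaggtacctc
Krtap6-5: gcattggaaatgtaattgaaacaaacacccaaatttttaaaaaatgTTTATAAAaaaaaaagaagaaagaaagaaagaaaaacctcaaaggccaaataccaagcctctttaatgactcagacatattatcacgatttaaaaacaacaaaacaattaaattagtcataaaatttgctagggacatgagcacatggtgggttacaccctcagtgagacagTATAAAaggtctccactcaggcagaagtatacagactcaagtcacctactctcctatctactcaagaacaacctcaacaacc

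Krt5 shows a basal promoter without either exact match (chr15:101712856-101713155, minus strand). It holds gataaa, which differs from TATAAA only in its first letter, so the missing match does not show that a TATA box is absent. Krt25 (chr11:99322902-99323201, minus strand) and Krt73 (chr15:101802311-101802610, minus strand) are a type I and a type II member of the inner root sheath. The cortex keratin Krt31 (chr11:100050502-100050801, minus strand) holds both kinds of match, and the keratin-associated Krtap6-5 (chr16:89047850-89048149, minus strand) holds TATAAA at 2 places.

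On day 5 no member was called higher than control and 4 of 71 were called lower, against 16.8% of all genes higher and 17.5% lower. Krt7, Krt79, Krt42 and Krt4 fell, and no basal, inner root sheath, hair shaft or keratin-associated member was called. The changes of all 3 basal and all 7 inner root sheath members were negative, with medians of -0.70 and -0.80. The median change was -0.23 on the log2 scale over the members and -0.07 over all genes.

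On day 20 again no member was higher than control, and 12 of 71 were lower, against 15.6% of all genes higher and 14.5% lower. The 12 were 2 basal keratins (Krt5, Krt15), the suprabasal Krt79, 2 of the inner root sheath (Krt71, Krt73), 2 of the hair shaft (Krt35, Krt82), Krtap5-2, and Krt4, Krt7, Krt42 and Krt222 of the others. The share of members called lower lay close to that of all genes. All 7 inner root sheath members and all 12 hair shaft members had a negative change, with medians of -1.28 and -0.83, while the 31 keratin-associated members had a median of -0.25. Without day 20 B and E, 4 members were called lower (Krt5, Krt7, Krt42 and Krt79), against 11.0% of all genes higher and 8.19% lower. The medians were then -0.16 for the inner root sheath, 0.10 for the hair shaft and 0.61 for the keratin-associated members, 25 of which had a positive change. With and without the 2 arrays, the medians were -1.49 and -0.67 for the basal and -0.51 and -0.12 for the suprabasal members. They were -0.48 and 0.17 for the stress and outer sheath members, and -0.625 and -0.587 for the others.

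On day 60 no member was called against control in either direction by limma, against 0.368% of all genes higher and 0.765% lower. At an unadjusted p under 0.05 there were 3 of 71 members, against 2155 of 13594 genes. Between day 20 and day 5 there was likewise no member called, against 3.05% of all genes higher and 2.25% lower on day 20. There 6 of 71 members were at an unadjusted p under 0.05, against 2710 of 13594 genes. On day 60 against day 20, 11 members were higher and 0 lower, against 11.0% and 11.2% of all genes. They were all 3 basal members, Krt79, 5 of 7 inner root sheath members (Krt25, Krt28, Krt71, Krt72 and Krt73) and the hair shaft keratins Krt35 and Krt36. Without day 20 B and E, 3 members were higher (Krt5, Krt35 and Krt73), against 5.70% of all genes higher and 7.30% lower. The class medians were then 0.75 for the inner root sheath and -0.85 for the keratin-associated members, against 1.96 and 0.12 with all arrays. For the hair shaft the median was then 0.02, with 6 of 12 changes positive, against 0.81 and 12 of 12 with all arrays. For the basal, suprabasal, stress and outer sheath, and other members it was 0.93, 0.59, 0.31 and 0.43, against 1.71, 1.17, 1.31 and 0.37. On day 60 against day 5, Krt73 and Krt7 were higher and Krtap12-1 was lower, against 12.2% of all genes in each direction. That count was unstable: with single arrays left out, between 0 and 6 members were higher. Without day 20 B and E, 11 members were higher and 0 lower, against 12.5% and 11.8% of all genes. These comparisons share the day 20, day 5 or control arrays with those above. Groups without overlap, named gene by gene below, were no more frequent than among other genes. All day 5 arrays lay below all controls in 4 of 71 members (14.8% of all genes) and above them in 1 (14.5%). All day 20 arrays lay below all controls in 4 (9.63%). All day 60 arrays lay above all day 20 arrays in 5 (7.04% of members, 7.03% of all genes). They lay above all day 5 arrays in 6 (9.81%) and below them in 3 (10.3%).

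**Figure D2:**
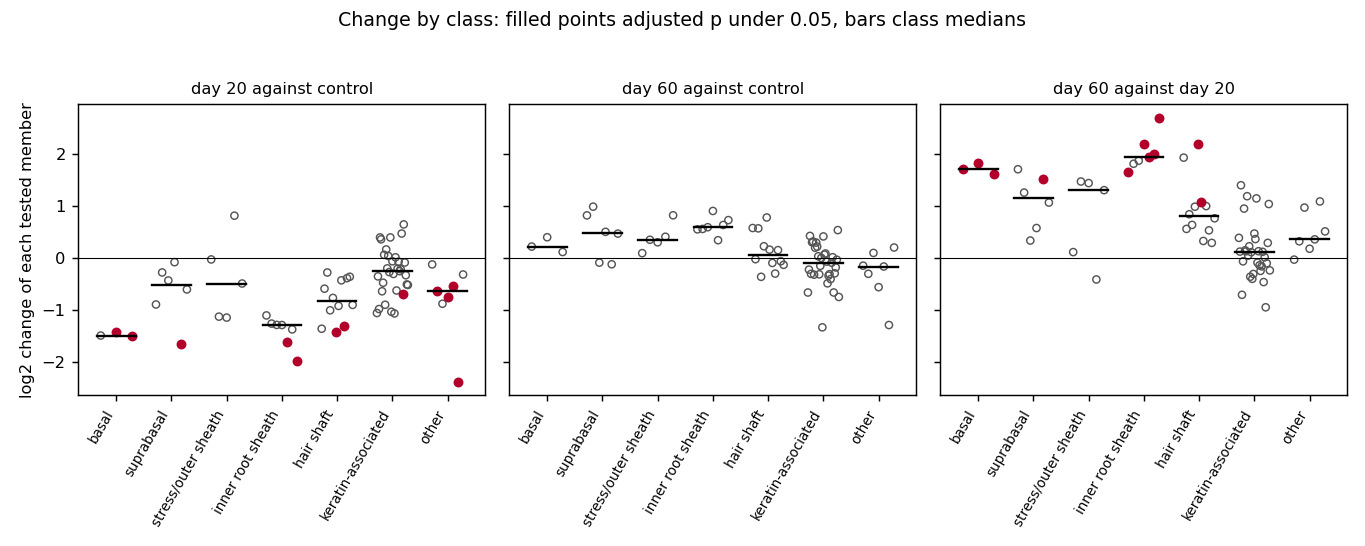
Each point is the log2 change of 1 tested member, by class, on day 20 against control, day 60 against control and day 60 against day 20, with a bar at the class median and filled points at an adjusted p under 0.05. The inner root sheath medians are -1.28, 0.60 and 1.96, and the keratin-associated medians -0.25, -0.08 and 0.12.

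Of the basal keratins, Krt5 is the type II chain of the basal layer and of the outer root sheath. Its signal was 4999, 9290, 4576, 5839 and 3354 in control, 2882, 3284, 3185 and 3039 on day 5, 3067, 749, 4247, 2038 and 928 on day 20 and 4950, 6701, 6143, 5825 and 5428 on day 60. Every day 5 array lay below every control array, and every day 60 array above every day 20 array. On day 20 it averaged 2206 ± 1474, against 5612 ± 2243 in control (SD, n = 5 each), and it fell 2.82-fold (log2 change -1.50 ± 0.34, SE, adjusted p = 0.00267). On day 60 it averaged 5810 ± 669 (SD, n = 5) and rose 3.07-fold (log2 change 1.62 ± 0.34, SE, adjusted p = 0.00204) against day 20. The fall was still called without day 20 B and E, with a log2 change of -0.81 ± 0.25 (SE, adjusted p = 0.0308). The day 5 change from control was -0.76 ± 0.36 on the log2 scale (SE, adjusted p = 0.115), which did not pass the test although the groups did not overlap.

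Krt14 is the type I partner of Krt5. Its signal was 4386, 10411, 3984, 5515 and 2046 in control, 2125, 4457, 2187 and 2959 on day 5, 3454, 606, 7336, 1872 and 266 on day 20 and 4058, 5564, 9835, 5644 and 3697 on day 60. Day 20 overlapped every other group. It rose 3.28-fold (log2 change 1.71 ± 0.60, SE, adjusted p = 0.0452) on day 60 against day 20, and the day 20 change from control was -1.49 ± 0.60 on the log2 scale (SE, adjusted p = 0.0665). Its other 2 probe sets had changes of -0.42 and -1.12 there, the same sign as the chosen one. On day 60 against day 20 they gave 0.31 (adjusted p = 0.297) and 1.41 (adjusted p = 0.0888) in a limma fit of all probe sets. Neither was called. The chosen probe set can also read related transcripts. Its rise on day 60 became 0.56 ± 0.45 on the log2 scale (SE, adjusted p = 0.466) without day 20 B and E. The call of the rise was lost without control A, C or D, day 5 B, C, D or E, day 20 B, D or E or day 60 A, B, C or D (adjusted p between 0.0504 and 0.129). Without the named control or day 5 arrays the log2 change itself stayed at 1.71, as these arrays enter only the shared spread and the adjustment.

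Krt15 marks basal cells and the stem cells of the follicle bulge. It had a signal of 378, 2273, 1590, 1290 and 606 in control, 454, 770, 1255 and 969 on day 5, 580, 39, 924, 421 and 168 on day 20 and 1088, 1257, 1273, 1151 and 2684 on day 60. Every day 60 array was above every day 20 array, while day 20 and control overlapped. It fell 2.68-fold (log2 change -1.42 ± 0.48, SE, adjusted p = 0.0304) on day 20 against control and rose 3.56-fold (log2 change 1.83 ± 0.48, SE, adjusted p = 0.00935) on day 60 against day 20. With day 20 B and E left out, neither was called (log2 change -0.67 ± 0.44, SE, adjusted p = 0.312, and log2 change 1.08 ± 0.44, SE, adjusted p = 0.121). The day 20 call was lost without control B, C or D or day 20 B or E (adjusted p between 0.0638 and 0.101). Of 5 other basal genes tested (a list of adhesion and regulatory genes), 3 fell on day 20 against control, among them Trp63, the master regulator of stratified epithelium, by 1.75 on the log2 scale. Itga6, which endothelium also expresses, rose by 1.43. With day 20 B and E left out, 6 genes of the list passed the signal limit, of which 1 was called lower and 1 higher, and their median was -0.53, against -0.98 with all arrays.

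The suprabasal keratins differed among themselves. Krt79 marks the upper follicle and the sebaceous duct. Its signal was 4621, 9903, 5031, 5225 and 4163 in control, 2460, 3486, 2146 and 2564 on day 5, 2096, 715, 2991, 2750 and 1052 on day 20 and 4277, 7275, 6554, 6612 and 2469 on day 60. The lowest control lay above every day 5 and day 20 array, and day 60 overlapped both. It fell 2.06-fold (log2 change -1.04 ± 0.37, SE, adjusted p = 0.0364) on day 5 and 3.14-fold (log2 change -1.65 ± 0.35, SE, adjusted p = 0.00146) on day 20 against control, and rose 2.9-fold (log2 change 1.53 ± 0.35, SE, adjusted p = 0.00363) on day 60 against day 20. The day 5 call was lost without control B, C or D or day 5 B, D or E (adjusted p between 0.0501 and 0.0894). With day 20 B and E left out, the day 20 fall was called (log2 change -1.06 ± 0.31, SE, adjusted p = 0.0238) and the day 60 change was not (log2 change 0.95 ± 0.31, SE, adjusted p = 0.0551).

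Krt1 and Krt10 are the pair made when a keratinocyte leaves the basal layer. Krt1 had a signal of 888, 2110, 2095, 6971 and 1944 in control, 2634, 244, 509 and 199 on day 5, 4379, 566, 15820, 69 and 297 on day 20 and 289, 7071, 7130, 12614 and 4655 on day 60. Krt10 had a signal of 826, 2748, 1425, 5130 and 1351 in control, 2146, 947, 470 and 690 on day 5, 2431, 738, 10170, 976 and 409 on day 20 and 731, 4291, 6890, 13181 and 2742 on day 60. Both were highest on day 20 C and day 60 D and low on most day 5 arrays and on day 60 A, and the groups overlapped. No contrast of Krt1 or Krt10 was called, and on day 60 against day 5 the changes were 2.69 ± 1.14 on the log2 scale (SE, adjusted p = 0.0925), and 1.96 ± 0.79 on the log2 scale (SE, adjusted p = 0.0781).

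Krt77 is known from sweat gland ducts, and Krt80 from cells late in differentiation. Krt77 was at 538, 829, 1200, 1150 and 690 in control, 789, 421, 744 and 459 on day 5, 719, 497, 605, 519 and 717 on day 20 and 611, 943, 852, 951 and 672 on day 60, and Krt80 at 2952, 8272, 2363, 2644 and 2031 in control, 2824, 3720, 1502 and 1604 on day 5, 3862, 1295, 3413, 2474 and 827 on day 20 and 3672, 6477, 6175, 3622 and 3215 on day 60. Neither was called in any contrast, with changes of -0.43 ± 0.21 on the log2 scale (SE, adjusted p = 0.132), and -0.60 ± 0.41 on the log2 scale (SE, adjusted p = 0.283), on day 20 against control. Krt2, a keratin of the upper layers of ear, sole and tail skin, was below the signal limit, at 158, 81, 108, 178 and 15 in control, 8, 17, 118 and 110 on day 5, 110, 19, 92, 32 and 20 on day 20 and 85, 50, 8, 186 and 31 on day 60. Of 18 epidermal differentiation genes tested, 2 fell on day 20 against control and 7 rose on day 60 against day 20, with medians of -1.03 and 1.46. Without day 20 B and E, 0 were called in the first comparison by limma and 1 rose in the second, with medians of -0.17 and 0.49.

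**Figure D3:**
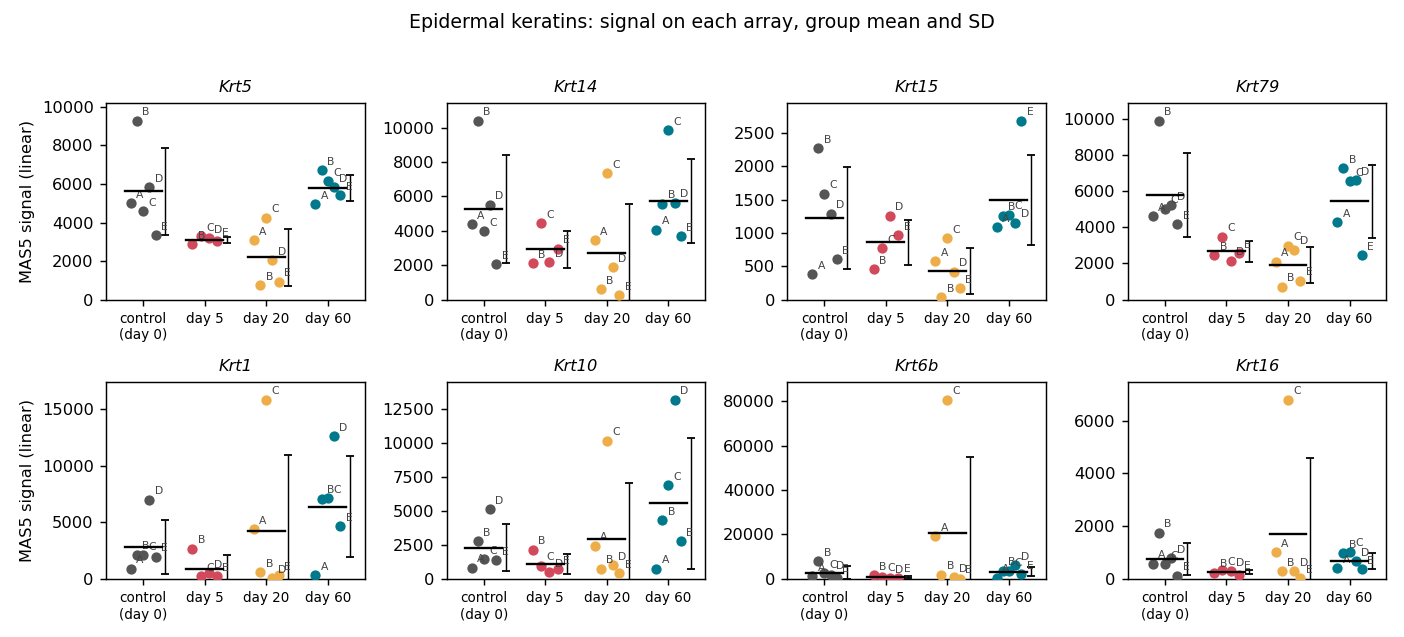
Points are single arrays (letter beside the point), bars the group mean and SD, and the axis the linear MAS5 signal, for 8 epidermal members in control, day 5, day 20 and day 60. Krt5 of day 60 lies above all of day 20, and Krt6b stands at 80838 on day 20 C.

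The stress keratins Krt6a, Krt6b, Krt16 and Krt17 sit in the follicle's outer root sheath or its companion layer and are switched on in the epidermis after wounding. Krt6b had a signal of 1189, 7931, 2451, 1860 and 371 in control, 1554, 871, 195 and 521 on day 5, 19172, 1775, 80838, 731 and 74 on day 20 and 511, 3585, 3372, 6196 and 2000 on day 60. Day 20 C and A lay above all the other arrays and day 20 E below all of them, so the extremes of this gene were both on day 20. Krt16 was at 570, 1747, 554, 772 and 108 in control, 234, 332, 286 and 145 on day 5, 1006, 279, 6792, 288 and 23 on day 20 and 403, 967, 1021, 659 and 356 on day 60. The highest value was again day 20 C and the lowest day 20 E. Both arrays C and A were also the 2 highest of day 20 for Krt1 and Krt10. The day 20 changes from control were 0.82 ± 1.20 on the log2 scale (SE, adjusted p = 0.641), and -0.02 ± 0.74 on the log2 scale (SE, adjusted p = 0.988), and neither gene was called in any contrast. Leaving out day 20 B and E, they were 2.52 ± 1.13 on the log2 scale (SE, adjusted p = 0.13), and 1.07 ± 0.70 on the log2 scale (SE, adjusted p = 0.311).

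Krt6a was at 7414, 41620, 10599, 11917 and 3914 in control, 5621, 13668, 4326 and 6176 on day 5, 9317, 2014, 31423, 4384 and 1005 on day 20 and 10355, 23716, 19530, 11742 and 8074 on day 60. Krt17 was at 1027, 5340, 1665, 1401 and 457 in control, 1199, 2225, 1214 and 1383 on day 5, 1063, 217, 2032, 768 and 172 on day 20 and 1189, 2709, 1925, 2181 and 1774 on day 60. Krt75, of the companion layer between the outer and the inner sheath, was at 1299, 6932, 2328, 1949 and 624 in control, 1149, 3025, 2216 and 948 on day 5, 1863, 702, 2823, 2010 and 582 on day 20 and 2563, 4963, 4178, 3300 and 3104 on day 60. In all 3, control B was the highest array and day 20 E the lowest. None was called. On day 60 against day 20 the changes were 1.48 ± 0.53 on the log2 scale (SE, adjusted p = 0.0519) for Krt17 and 1.31 ± 0.49 on the log2 scale (SE, adjusted p = 0.0624) for Krt75.

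With all arrays in the fit, the 7 inner root sheath members had changes of 1 sign in each of the 6 comparisons. Without day 20 B and E, 2 of the 7 were positive on day 20 against control, and on day 20 against day 5 all 7 were positive, with a median of 0.43, against -0.61 with all arrays. Krt73, a type II keratin of the sheath's cuticle, had a signal of 18829, 41696, 15626, 19229 and 14058 in control, 7783, 16728, 9423 and 8402 on day 5, 9260, 1704, 13491, 9909 and 1492 on day 20 and 19247, 61389, 49579, 27932 and 26340 on day 60. No day 20 array reached the lowest control, and all day 60 arrays lay above day 5 and day 20. It averaged 7171 ± 5337 on day 20, against 21888 ± 11284 in control (SD, n = 5 each), and fell 3.92-fold (log2 change -1.97 ± 0.52, SE, adjusted p = 0.00766). On day 60 it averaged 36897 ± 17776 and rose 6.54-fold (log2 change 2.71 ± 0.52, SE, adjusted p = 0.000954) against day 20, and 3.32-fold (log2 change 1.73 ± 0.56, SE, adjusted p = 0.0285) against day 5. Leaving out day 20 B and E kept the rise on day 60 (log2 change 1.64 ± 0.37, SE, adjusted p = 0.00744) but not the call on day 20 against control (log2 change -0.90 ± 0.37, SE, adjusted p = 0.102). The call against day 5 was lost without day 5 B, D or E or day 60 B or C (adjusted p between 0.0575 and 0.081).

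Krt71 and Krt72 are further type II members, and the first is the gene of curly-coated mouse mutants. Krt71 had a signal of 13828, 45215, 18800, 17556 and 10679 in control, 11532, 16752, 9150 and 7841 on day 5, 14307, 2573, 13833, 14099 and 1021 on day 20 and 16176, 34248, 31312, 18118 and 23756 on day 60. Day 60 and day 20 did not overlap, while day 20 and control did. It fell 3.05-fold (log2 change -1.61 ± 0.58, SE, adjusted p = 0.0414) on day 20 against control and rose 3.89-fold (log2 change 1.96 ± 0.58, SE, adjusted p = 0.0191) on day 60 against day 20. Neither was called without day 20 B and E (log2 change -0.40 ± 0.36, SE, adjusted p = 0.485, and log2 change 0.75 ± 0.36, SE, adjusted p = 0.195). With single arrays left out, the fall was lost without control A, B, C or D or day 20 B or E (adjusted p between 0.053 and 0.12), and the rise was lost without day 20 B (adjusted p = 0.062). Krt72 had a signal of 6058, 21430, 4832, 7021 and 3539 in control, 3481, 6927, 3760 and 2577 on day 5, 3392, 919, 7818, 5136 and 905 on day 20 and 6360, 22076, 21567, 7216 and 6831 on day 60. It rose 4.03-fold (log2 change 2.01 ± 0.58, SE, adjusted p = 0.016) on day 60 against day 20 and was not called without the 2 arrays (log2 change 1.06 ± 0.53, SE, adjusted p = 0.209). Day 60 and day 20 overlapped. That call was lost without day 20 B (adjusted p = 0.0551).

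Krt25, Krt27 and Krt28 are the type I chains. Krt25 had a signal of 56187, 144718, 80393, 94589 and 45071 in control, 57690, 86241, 51455 and 47639 on day 5, 74511, 14676, 86019, 79417 and 8164 on day 20 and 96997, 154291, 161995, 95514 and 83666 on day 60. Krt27 had a signal of 29956, 109269, 44644, 47274 and 20019 in control, 31669, 50187, 13184 and 12104 on day 5, 41283, 6790, 58519, 43617 and 2164 on day 20 and 55746, 89825, 106494, 48859 and 42720 on day 60. Krt28 had a signal of 9055, 40396, 12783, 13999 and 6937 in control, 6932, 15026, 6930 and 7015 on day 5, 10505, 1523, 16877, 10076 and 1766 on day 20 and 15574, 40283, 46896, 21075 and 17709 on day 60. Day 20 A, C and D lay within the control range for each of the 3, and B and E below it. On day 60 against day 20 Krt25 rose 3.15-fold (log2 change 1.66 ± 0.53, SE, adjusted p = 0.0288) and Krt28 4.58-fold (log2 change 2.20 ± 0.59, SE, adjusted p = 0.011), while Krt27 gave 1.88 ± 0.72 on the log2 scale (SE, adjusted p = 0.0663). Without the 2 arrays neither rise was called (log2 change 0.52 ± 0.31, SE, adjusted p = 0.314 and log2 change 1.07 ± 0.47, SE, adjusted p = 0.151). The call of Krt25 was lost without day 20 B or E or day 60 B or C (adjusted p between 0.0586 and 0.0918). The remaining member, Krt26, ran between 1272 and 41909.

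**Figure D4:**
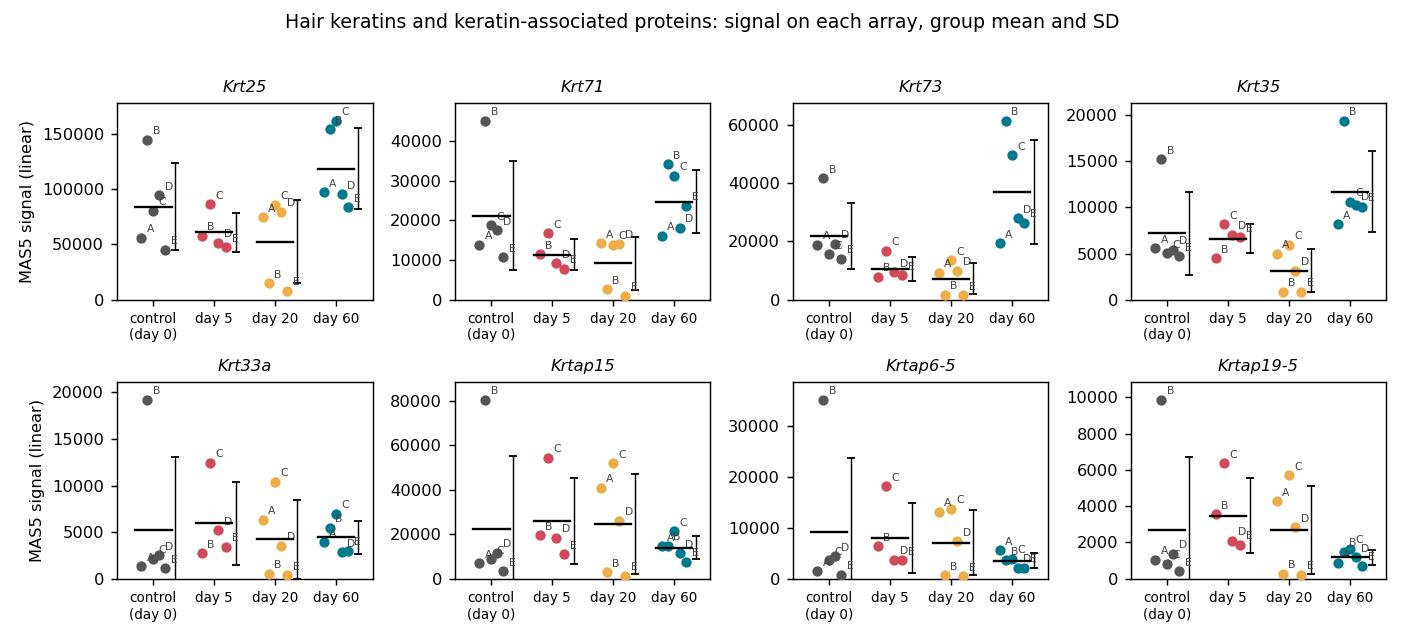
Points are single arrays (letter beside the point), bars the group mean and SD, and the axis the linear MAS5 signal, for 3 inner root sheath keratins, 2 hair shaft keratins and 3 keratin-associated genes in control, day 5, day 20 and day 60. Day 20 B and E are low in every panel, and control B is high in every panel.

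Of the hair shaft keratins, Krt35 appears early, in the matrix and the hair cuticle. It had a signal of 5598, 15244, 5006, 5413 and 4740 in control, 4501, 8183, 7031 and 6745 on day 5, 4988, 862, 5937, 3128 and 840 on day 20 and 8167, 19434, 10629, 10236 and 10086 on day 60. Every day 60 array lay above every day 20 array, and control B stood far above the other controls. It fell 2.66-fold (log2 change -1.41 ± 0.46, SE, adjusted p = 0.0256) on day 20 against control and rose 4.59-fold (log2 change 2.20 ± 0.46, SE, adjusted p = 0.00184) on day 60 against day 20. The rise held without day 20 B and E (log2 change 1.28 ± 0.34, SE, adjusted p = 0.0204), and the fall was not called (log2 change -0.50 ± 0.34, SE, adjusted p = 0.342). The call of the fall was lost without control B or day 20 B or E (adjusted p between 0.0705 and 0.0868).

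Krt82, a hair cuticle keratin, was at 546, 1657, 697, 964 and 398 in control, 467, 656, 462 and 506 on day 5, 508, 162, 548, 251 and 47 on day 20 and 259, 988, 916, 723 and 432 on day 60. Its probe set can also read related transcripts. It fell 2.46-fold (log2 change -1.30 ± 0.40, SE, adjusted p = 0.0181) on day 20 against control and was not called without the 2 arrays (log2 change -0.74 ± 0.39, SE, adjusted p = 0.194). The call was lost without control B or day 20 E (adjusted p between 0.0511 and 0.0547). Krt36, another hair keratin, was at 788, 2347, 1106, 1189 and 936 in control, 933, 2026, 867 and 882 on day 5, 870, 323, 1428, 574 and 248 on day 20 and 909, 2127, 1514, 1235 and 1194 on day 60. It rose 2.12-fold (log2 change 1.08 ± 0.36, SE, adjusted p = 0.0367) on day 60 against day 20 and was not called without the 2 arrays (log2 change 0.53 ± 0.35, SE, adjusted p = 0.353). The call was lost without day 20 B, D or E or day 60 B, C or D (adjusted p between 0.0573 and 0.105).

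Krt31, Krt33a and Krt34 are keratins of the hair cortex. Krt31 was at 11906, 49252, 10550, 12144 and 6492 in control, 10971, 27297, 14128 and 13112 on day 5, 13483, 1065, 22384, 10048 and 1189 on day 20 and 14331, 38016, 27571, 17101 and 14659 on day 60. Krt33a was at 1331, 19224, 2149, 2536 and 1105 in control, 2748, 12433, 5186 and 3434 on day 5, 6335, 546, 10419, 3537 and 384 on day 20 and 3942, 5456, 6968, 2871 and 3003 on day 60. Krt34 was at 3695, 30725, 3889, 5799 and 2789 in control, 5892, 12854, 5090 and 3880 on day 5, 8870, 859, 13767, 5279 and 785 on day 20 and 6161, 13511, 12872, 3809 and 4035 on day 60. Control B was the highest array and day 20 B and E the lowest 2 for all 3, and none was called in any contrast. For Krt33a the summaries of day 20 against control differed in sign: the fitted change was -0.27 ± 0.79 on the log2 scale (SE, adjusted p = 0.826), while the median array was 3537 on day 20, against 2149 in control. With arrays B and E of day 20 left out, the fitted change was 1.12 ± 0.69 on the log2 scale (SE, adjusted p = 0.278).

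Krt33b was at 1052, 4421, 1359, 1395 and 1012 in control, 221, 2786, 1168 and 869 on day 5, 1997, 156, 2391, 1371 and 101 on day 20 and 1574, 2347, 1364, 1017 and 451 on day 60. Krt81 was at 3841, 16798, 4751, 6338 and 4132 in control, 3701, 13211, 3997 and 4435 on day 5, 7240, 2385, 9064, 4438 and 2579 on day 20 and 5116, 9443, 7386, 4539 and 3653 on day 60. Krt86 was at 1698, 5839, 2282, 2501 and 735 in control, 1306, 6341, 1320 and 1649 on day 5, 3060, 282, 3450, 2241 and 147 on day 20 and 2182, 2770, 2699, 1406 and 1202 on day 60. The day 5 C array was the highest of its group for each, and none was called. Krt84, known from the tongue and nail more than from hair, was at 607, 786, 1095, 920 and 491 in control, 679, 402, 499 and 506 on day 5, 558, 540, 663, 552 and 532 on day 20 and 638, 849, 915, 632 and 616 on day 60, and its day 20 arrays lay between 532 and 663. The remaining members, Krt32 and Krt83, ran between 1061 and 4724 and between 492 and 5344.

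Of the keratin-associated proteins, which cross-link the hair keratins, 31 of 38 were tested and 7 lay below the signal limit. Krtap15, a high sulphur protein, was at 7019, 80410, 8854, 11658 and 3353 in control, 19548, 54425, 18437 and 10991 on day 5, 40856, 3008, 51904, 26035 and 1430 on day 20 and 14609, 14831, 21430, 11526 and 7624 on day 60. Krtap13-1 was at 12878, 77615, 13505, 16048 and 5408 in control, 20123, 46456, 13363 and 12139 on day 5, 32320, 2763, 36875, 20719 and 1801 on day 20 and 22092, 31803, 38530, 11918 and 11353 on day 60. Krtap6-5, of a family rich in glycine and tyrosine, was at 1474, 35109, 3663, 4406 and 753 in control, 6345, 18172, 3746 and 3600 on day 5, 13140, 670, 13729, 7386 and 476 on day 20 and 5614, 3656, 3956, 2126 and 2161 on day 60. Control B was the highest array of all in each, and day 20 B and E were the lowest 2.

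Krtap8-1 was at 6289, 44534, 7917, 8961 and 2816 in control, 4750, 19558, 8610 and 7248 on day 5, 18769, 1398, 28887, 9364 and 1267 on day 20 and 7514, 29080, 22725, 9460 and 8116 on day 60. Krtap11-1 was at 2856, 28024, 4260, 5131 and 1483 in control, 4318, 9285, 4539 and 3304 on day 5, 6885, 671, 9591, 3550 and 437 on day 20 and 3882, 12317, 12171, 5003 and 4242 on day 60. Both had the same extremes. None of these 5, which had the highest mean signals of the family, was called in any contrast. Their changes on day 20 against control ran between -0.98 and 0.07 on the log2 scale. Without day 20 B and E all 5 were positive there, between 0.34 for Krtap11-1 and 1.72 for Krtap15, and none was called. By known composition, the 10 tested high glycine-tyrosine members had a median change of -0.14 on day 20 against control, the 9 ultra-high sulphur members -0.25 and the 7 high sulphur members -0.63. Without the 2 arrays these medians were 0.96, 0.74 and 0.83, so that all 3 changed sign. On day 60 against day 5 the medians were -0.28, -0.42 and -0.31.

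Only 2 keratin-associated members were called anywhere. Krtap12-1 was at 763, 1826, 2499, 1933 and 1159 in control, 3125, 2624, 3195 and 2553 on day 5, 2486, 2008, 2549, 1180 and 2321 on day 20 and 596, 432, 2007, 2096 and 2195 on day 60. On this chosen probe set, every day 5 array lay above every control, day 20 and day 60 array. It fell 2.25-fold (log2 change -1.17 ± 0.40, SE, adjusted p = 0.0397) on day 60 against day 5. In a limma fit of all probe sets, its second probe set gave -0.05 (adjusted p = 0.918) on day 5 against control. The chosen one gave 0.87 there. On day 20 against control the second had the opposite sign (-0.86 against 0.40) and was called lower in that fit (adjusted p = 0.0366). The call of Krtap12-1 on day 60 against day 5 was lost without day 5 B, C, D or E or day 60 A or B (adjusted p between 0.0606 and 0.101). Krtap5-2 was at 378, 642, 710, 370 and 524 in control, 435, 341, 363 and 172 on day 5, 487, 179, 138, 423 and 294 on day 20 and 361, 256, 302, 243 and 283 on day 60. It fell 1.6-fold (log2 change -0.68 ± 0.25, SE, adjusted p = 0.0485) on day 20 against control, a call that was lost without control B, C or E, day 5 C or D, day 20 B, C or E or day 60 A, B, C, D or E (adjusted p between 0.0513 and 0.139).

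Sheath and shaft genes could be set against each other within an array, where a factor common to both classes cancels. For each array the median of the 31 tested keratin-associated members was taken from the median of the 7 inner root sheath members, each member first centred on its mean over the 19 arrays. The difference was 0.48, -0.44, 0.22, 0.36 and 0.34 on the log2 scale in control, -0.81, -1.16, -0.46 and -0.51 on day 5, -0.75, -1.06, -0.33, -0.24 and -1.04 on day 20, and 0.55, 1.45, 1.36, 0.89 and 0.76 on day 60. All day 60 arrays lay above all other arrays. No day 5 array reached control, although day 5 D (-0.46) came close to control B (-0.44). Day 20 B and E, the low arrays, lay with day 20 A and with day 5 in this measure, and day 20 overlapped control through control B alone. With the hair shaft keratins in place of the keratin-associated members, day 60 was at 0.27, 0.66, 1.25, 0.66 and 0.54. There day 60 A lay below day 20 D (0.32) and control D (0.31), so day 60 overlapped both groups. Day 5 lay between -0.72 and -0.48 there, below every control array. These measures were chosen after the values were seen and are given as a description. On day 60 the inner root sheath medians were 0.44, 1.67, 1.83, 0.53 and 0.38, and the keratin-associated medians -0.11, 0.22, 0.46, -0.36 and -0.38. On day 20 B and E both classes were low, at -2.42 and -3.01 for the sheath and -1.37 and -1.96 for the keratin-associated members. The part of the damping in these differences was not tested. They do not show that either class stayed constant.

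**Figure D5:**
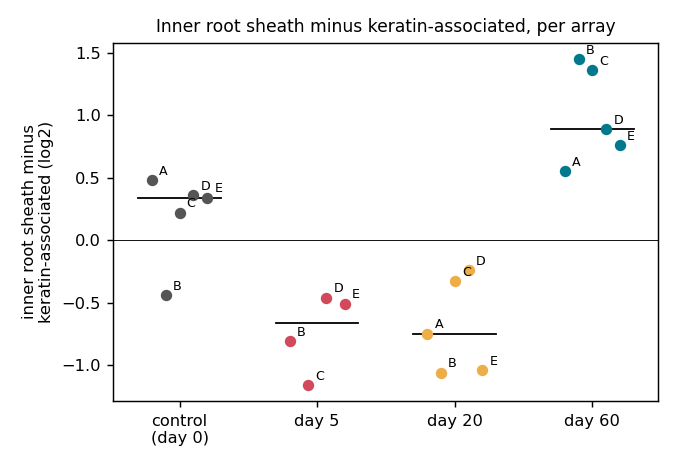
Each point is 1 array (letter beside it): the median of the inner root sheath members minus the median of the keratin-associated members, on the log2 scale, with a bar at the group median. Day 60 lies between 0.55 and 1.45, above every other array, and day 5 between -1.16 and -0.46.

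Genes of the hair follicle that are not keratins gave values for the same arrays. Of 12 tested regulators and structural genes of the follicle, all 12 fell on day 20 against control and 11 rose on day 60 against day 20, with medians of -1.25 and 1.92. Hoxc13, which drives hair keratin genes, fell by 1.74 and rose by 2.29. Dlx3 fell by 1.19 and rose by 2.08, and Gata3, needed for the inner root sheath, fell by 1.96 and rose by 2.11. Without day 20 B and E, 3 of the 12 fell and 10 rose, with medians of -0.64 and 1.19. Of 6 pigment cell genes, 2 fell and 5 rose in the same comparisons, and 0 and 4 were called without the 2 arrays. Markers of fat and vessel did not follow arrays B and E: the medians on day 20 against control were -3.16 with and -3.22 without them for the adipocyte list, and 2.05 and 1.97 for the endothelial list.

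The other members belong to glands, mucosa or nail. Krt7, a keratin of simple and glandular epithelium, was at 977, 1318, 799, 1292 and 1177 in control, 16, 53, 158 and 173 on day 5, 100, 206, 27, 194 and 181 on day 20 and 39, 776, 360, 1260 and 275 on day 60. No array of day 5 or day 20 came near the lowest control, and day 60 spread across both. It averaged 100 ± 77.7 on day 5 (n = 4), against 1113 ± 221 in control (n = 5, both SD), and fell 6.36-fold (log2 change -2.67 ± 0.47, SE, adjusted p = 0.000243). On day 20 it fell 5.2-fold (log2 change -2.38 ± 0.45, SE, adjusted p = 0.000476) against control, and on day 60 it rose 2.61-fold (log2 change 1.39 ± 0.47, SE, adjusted p = 0.0383) against day 5. The rise was lost without day 5 B or C or day 60 B, C or D (adjusted p between 0.0557 and 0.129). Its levels moved with those of the simple keratins left out of the members: Krt8 was at 9018, 12896, 11317, 13850 and 8499 in control, 738, 511, 423 and 294 on day 5, 518, 441, 452, 518 and 212 on day 20 and 316, 11009, 1728, 11089 and 2434 on day 60. Krt8, Krt18 and Krt19 fell by 4.42, 4.82 and 3.70 on the log2 scale on day 20 against control, and day 60 arrays B and D, the highest 2 of day 60 for all 3, were also the highest 2 for Krt7. The part of glandular tissue in the Krt7 result was not tested.

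Krt42, known from the nail, was at 5765, 3678, 5348, 6577 and 5633 in control, 2980, 2540, 4302 and 4290 on day 5, 3410, 3423, 3682, 3415 and 4491 on day 20 and 3859, 4857, 5033, 5306 and 4827 on day 60. It fell 1.53-fold (log2 change -0.61 ± 0.17, SE, adjusted p = 0.0105) on day 5 and 1.44-fold (log2 change -0.52 ± 0.16, SE, adjusted p = 0.0207) on day 20 against control. The day 5 call was lost without day 5 C (adjusted p = 0.0528), and the day 20 call was lost without control D (adjusted p = 0.0617). Krt4, a keratin of internal stratified epithelia, was at 1111, 850, 1043, 1235 and 918 in control, 472, 449, 641 and 619 on day 5, 743, 484, 254, 747 and 831 on day 20 and 508, 410, 1023, 906 and 647 on day 60. It fell 1.76-fold (log2 change -0.81 ± 0.26, SE, adjusted p = 0.0222) on day 5 and 1.67-fold (log2 change -0.74 ± 0.25, SE, adjusted p = 0.0297) on day 20, and all arrays of both days lay below all controls. The day 5 call was lost without control D or day 5 B or C (adjusted p between 0.0518 and 0.0654), and the day 20 call was lost without control A, C or D or day 20 B or C (adjusted p between 0.0506 and 0.0893). The probe sets of both genes can read related transcripts, and neither followed the drop on day 20 B and E. Krt222 was at 554, 281, 603, 545 and 478 in control, 370, 179, 311 and 374 on day 5, 287, 319, 247, 205 and 336 on day 20 and 372, 184, 574, 477 and 349 on day 60. It fell 1.54-fold (log2 change -0.63 ± 0.23, SE, adjusted p = 0.0471) on day 20 against control, a call that was lost without control A, C, D or E, day 5 B, D or E, day 20 A, B, C or D or day 60 A, D or E (adjusted p between 0.0505 and 0.107).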

How the data were processed

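Arrays were Affymetrix Mouse Genome 430 2.0. The deposited intensity values are MAS5 signals, linear and background-corrected, which the authors scaled by a factor of 1500 in GCOS 1.3, per the labels' protocols and the submitters' processing notes. The table held 45101 probe sets, of which 34958 had 1 gene symbol in the platform annotation, 932 had several and 9211 had none. Detection calls were not used here. Keratin probe sets with several symbols (7) were left out, 13 members had several probe sets, and 12 of the chosen ones have a suffix (x, s or a) of probe sets that can read related transcripts.

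A linear model with empirical Bayes moderation (limma 3.58.1, R 4.3.3, trend on) was fitted to log2(signal + 100) of all 4 groups, with 6 contrasts and Benjamini-Hochberg adjustment over 13594 genes. Signals were not normalized again. The fit was tested on simulated data. Arrays were grouped by source name and title, and no column was unused. Named with every array were a list of skin keratins, the 5 keratin-associated genes of highest mean signal and every member called in a contrast. Members, classes and lists were chosen with earlier results of these data known. Alternatives covered the pseudocount, the signal limit, the normalization, array weights, probe sets, the array titled day 5 A, a replicate block and each array left out.

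Same-lettered arrays of different groups did not all deviate together (11 of 27 pairs correlated over 0.1, between -0.275 and 0.348), so letters were not used as pairs. Promoters came from RefSeq (GRCm38.p6), and 17 members had no window.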

Additional observations from a re-analysis of the deposited data

Results flagged for a closer look

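Of 160 groups of arrays checked for the named members, 14 held 1 array far from the others of its group, by Dixon's test at the 95% level; chance gives about 1 in 20. Control B was such an array for Krt73 (41696), Krt33a (19224), Krt35 (15244), Krt79 (9903), Krt80 (8272) and Krt33b (4421), high in each. Day 5 C was high for Krt28 (15026), Krt81 (13211), Krt86 (6341) and Krt36 (2026). Day 60 E was high for the bulge keratin Krt15 (2684), and day 60 A low for Krt1 (289). On day 20, array E was high for Krt42 (4491) and array C for Krt84 (663).

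The array titled day 5 A, which is in no group, lay above every control array for 4 named members: Krt6b (10810), Krt10 (9661), Krt1 (8732) and Krtap12-1 (3055). It lay below every control array for Krt73 (10342), Krt42 (2790), Krt4 (446), Krt84 (445), Krtap5-2 (355), Krt7 (36) and the untested Krt2 (5). The simple keratins Krt8, Krt18 and Krt19, which are not members, read 583, 363 and 232 on it, against at least 8499, 7214 and 2073 on the control arrays.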

How the results depend on the processing

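The direction of every called member held under all alternatives run. The falls of Krt7 on days 5 and 20 and of Krt5 and Krt79 on day 20 against control, and the rises of Krt5, Krt35 and Krt73 on day 60 against day 20, passed the threshold in each alternative that tested them. Krt7 met the signal limit through control and day 60 alone, which favours its falls on the other days. Counts of members called moved as follows. A pseudocount of 1 left 1 higher on day 60 against day 5. With no limit on low signal, 1 was higher on day 20 against control and 1 against day 5, 1 lower on day 60 against day 20 (Krt76 in each) and 0 lower on day 60 against day 5. A mean of at least 1000 tested 52 members and gave 2 lower on day 5, 7 lower on day 20 against control and 1 higher on day 60 against day 5. Array weights gave 1 higher and 8 lower on day 5 against control, 1 lower on day 20 against day 5 and 4 higher on day 60 against day 5. A fit of the compared groups alone gave 1 higher and 7 lower on day 5 against control, and 15 higher and 2 lower on day 60 against day 5. A replicate block on the letters gave 19 higher on day 60 against day 20, and 5 higher and 0 lower on day 60 against day 5. With the array titled day 5 A in day 5, 4 were higher on day 60 against day 5. With it in control, 2 were lower on day 5, 7 lower on day 20, and 1 higher and 0 lower on day 60 against day 5. Leaving out day 20 B and E, chosen after seeing the data, gave 4 lower on day 20 against control (8.19% of all genes) and 3 higher on day 60 against day 20 (5.7% of all genes). It gave 11 higher and 0 lower on day 60 against day 5 (12.5% and 11.8% of all genes). Shares of all genes are not given for the other alternatives, so their counts are not read as results about the members. Where arrays were left out, those outside a comparison did not enter its log2 change. They entered only the spread shared by the groups, the choice of genes tested and the adjustment. The cause of the other shifts was not tested.

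With single arrays left out, the counts ran between 0 and 1 higher and 2 and 6 lower on day 5 against control, 6 and 16 lower on day 20 against control, 0 and 1 lower on day 60 against control, and 0 and 1 lower on day 20 against day 5. They ran between 6 and 21 higher on day 60 against day 20, and 0 and 6 higher and 0 and 1 lower on day 60 against day 5. The other counts were 0 in every such fit. The spread of the members between arrays and 4 or 5 arrays per group limit what could be called, and a missing call does not show that a keratin stayed the same.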

Other observations

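Krt76, a keratin of the hard palate, lay under the signal limit and was singled out after its values were seen. Its signal was 14, 12, 36, 18 and 29 in control, 33, 13, 13 and 11 on day 5, 140, 172, 190, 171 and 176 on day 20 and 32, 169, 14, 18 and 13 on day 60. All day 20 arrays, B and E included, lay above all control and day 5 arrays, and of the day 60 arrays B lay at the level of day 20. With no limit on signal, limma gave a log2 change of 1.15 (SE 0.19, adjusted p = 0.0001594) on day 20 against control. Whether signals this dim exceed background was not tested, and the probe set can read related transcripts.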
